A study of Mus musculus with 8 samples.

Results

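The NF-κB and inflammatory response genes described here are 44 mouse genes named by symbol, and their accessible chromatin was taken as every ATAC-seq peak that overlapped a gene body or the 10 kb on either side of it. Peaks of the 8 libraries that shared a base were merged, and 243 regions found in 2 libraries or more were kept, of 72711 such regions genome-wide, whereas 22 regions seen in 1 library were left out. Of the 243 regions, 74 were promoter regions, with a summit within 1 kb of an annotated start site, and 169 were distal. The 44 genes held between 1 region (Cd40 and Ptgs2) and 20 regions (Nfkb1) each, with a median of 4.5, and 6 regions were shared by neighbouring members, 4 by Cxcl1 and Cxcl2 and 2 by Casp1 and Casp4.

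The series measured open chromatin with the Tn5 transposase in alveolar macrophages, the resident macrophages of the lung airspace, lavaged and sorted from adult mice. The KO group (4 libraries, named 1_2, 1_3, 2 and 3) was CD11cCre+ Rxrab fl/fl, in which Cre under the Cd11c promoter deletes the floxed Rxra and Rxrb genes for the retinoid X receptors α and β. The WT group (4 libraries, named 1_2, 1_3, 3 and 4) was CD11cCre- Rxrab fl/fl, so that it carried the same floxed alleles without Cre. Cre acts in all cells that express Cd11c, not in alveolar macrophages alone. Neither the sex of the animals behind a library nor whether 1_2 and 1_3 came from one animal is given, so that the p-values below measure the spread between these libraries, part of which may be technical.

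NF-κB is a family of dimeric transcription factors built from Rel proteins, which rest in the cytoplasm bound to IκB proteins. When receptors for microbial products, TNF or IL-1 are engaged, kinase complexes mark IκB for degradation, and the freed dimers enter the nucleus and switch on cytokines, chemokines and, as a feedback, their own inhibitors. Resting alveolar macrophages are known for keeping this response in check while staying able to mount it, and retinoid X receptors are nuclear receptors that pair with PPARγ and other partners on DNA.

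The consensus letters bound by NF-κB, a motif of 10 bases called κB, were found within 100 bases of the summit in 35 of the 243 regions (14.4%), against 2.86% of all 72711 regions. Among the promoter regions the share was 25.7% (19 of 74) against 3.40% of all promoter regions, and among the distal regions it was 9.47% (16 of 169) against 2.70% of all distal regions. Matches on both strands were searched, and many of these genes are known targets of NF-κB. Matches in the members' own promoters are shown for 6 genes, of which Nfkb1 and Nfkb2 share a role. Each is given as 30 bases of the reference plus strand (mm10, GRCm38) with the matched bases in capitals, overlapping matches being joined.
Nfkb1 chr3:135691497-135691526: cttcctggctGGAAATTCCCactgacgtcg
Nfkb2 chr19:46304689-46304718: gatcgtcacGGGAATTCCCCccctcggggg
Nfkbie chr17:45555584-45555613: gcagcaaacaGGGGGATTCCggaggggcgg
Cxcl3 chr5:90786019-90786048: agctgcgggGGGAATTTCCCcagcccgggc
Casp4 chr9:5308747-5308776: tgagttacaGGGGATTTCCCcacagcagtt
Birc3 chr9:7873005-7873034: ccagggctccGGGGAACTCCagggtgaaaa

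Another 4 motifs were counted on both strands of the same windows. The AP-1 letters TGACTCA or TGAGTCA were in 12.3% of the members' regions and 9.49% of all regions, the PU.1 letters GAGGAAGT in 10.7% and 10.7%, and the C/EBP letters TTGCNNAA in 34 of the 243 regions and 14.7% of all regions. A pair of AGGTCA half-sites 1 base apart with at most 2 mismatches, called DR1 and used by RXR with PPARγ, was in 3.29% of the members' regions and 4.13% of all regions. Such a match is a description of the letters and not a bound site.

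A further 4 stretches of 201 bases centred on a summit are shown for regions that differed clearly between genotypes and for the Nos2 promoter, each on the plus strand of GRCm38. Capitals mark a match to any of the motifs above.
Socs3 promoter chr11:117969204-117969404: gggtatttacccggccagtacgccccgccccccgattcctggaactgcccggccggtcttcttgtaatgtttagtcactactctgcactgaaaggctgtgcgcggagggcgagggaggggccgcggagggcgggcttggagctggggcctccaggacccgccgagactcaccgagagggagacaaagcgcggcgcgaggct
Tnip3 upstream region chr6:65585516-65585716: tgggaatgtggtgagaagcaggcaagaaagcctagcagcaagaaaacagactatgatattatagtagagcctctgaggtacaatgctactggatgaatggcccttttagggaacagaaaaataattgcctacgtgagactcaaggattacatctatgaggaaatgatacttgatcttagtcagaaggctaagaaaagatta
Nfkb1 intronic region chr3:135602770-135602970: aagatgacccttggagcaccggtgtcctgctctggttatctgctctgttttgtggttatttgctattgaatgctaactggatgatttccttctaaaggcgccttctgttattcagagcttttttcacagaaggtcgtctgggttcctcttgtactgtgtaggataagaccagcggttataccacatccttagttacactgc
Nos2 promoter chr11:78920569-78920769: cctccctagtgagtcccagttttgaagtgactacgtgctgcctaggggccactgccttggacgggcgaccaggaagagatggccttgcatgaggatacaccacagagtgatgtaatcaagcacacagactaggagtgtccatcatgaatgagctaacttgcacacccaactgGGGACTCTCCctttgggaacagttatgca
Only the Nos2 promoter among these 4 held a match, a κB site 41 bases before the start site of the gene. Of the 18 regions of the 44 genes called different between genotypes below, 6 held a match to any of the 5 motifs. None held a DR1 match, which only 4.13% of all regions held, so that 18 regions are too few to read this absence. The share of all regions with any of the 5 motifs is not given here.

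Accessibility was measured as the number of Tn5 cuts, called tags, piled up at the highest base of a peak. Library depth set the smallest peak that could be called, which was 6 to 9 tags, over a genome average of 1.12 to 2.26 tags per 200 bases and with 60363 to 72484 peaks per library. A region without a peak may therefore be open below that limit. Values are printed as scaled tags, which are tags multiplied by a factor of 0.745 to 1.19 per library that brought the median of the 47499 regions found in all 8 libraries to the same level. A summit height in such bulk data cannot tell more open cells from more open chromatin per cell.

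Markers of the cell types that the sort could hold were read at promoters. Peaks were present in all 8 libraries at 8 of 10 alveolar macrophage markers (none at Chil3 and Krt79), with sums of 821 to 868 scaled tags in KO and 762 to 901 in WT. Within this list Itgax, which encodes CD11c, had 166 to 204 in KO and 118 to 135 in WT, Fabp4, a lipid-binding protein, had 49.5 to 61.7 and 76.4 to 105, and the genotypes overlapped at the other 6. All 5 T cell markers had no peak, and of 5 B cell markers 1 (Pax5) had a peak in 1 WT library. Of 7 neutrophil markers S100a8, Cxcr2 and Mmp8 had a peak in all 8 libraries and S100a9, Ly6g and Retnlg in none. The sums were 383 to 422 in KO and 379 to 436 in WT, and Cxcr2 had 41.8 to 55.6 in KO and 55.9 to 71.0 in WT. Of 6 epithelial markers Epcam, Cdh1 and Scgb1a1 had a peak in all 8 libraries and Sftpc, Sftpb and Nkx2-1 in none. The sums were 103 to 136 in KO and 105 to 131 in WT, and Cdh1 had 30.8 to 34.9 in KO and 23.2 to 26.8 in WT. The study counts Mmp8 and Cdh1 among the genes of alveolar macrophages too, so that they do not mark another cell type here. The sum over the 5 monocyte markers was 331 to 362 in KO and 228 to 301 in WT without overlap, of which Itgam (CD11b) contributed 261 to 296 and 173 to 241, while Ccr2 had a peak in 1 library of each genotype. The part of these marker differences in the results below was not tested. In the targeted Rxra gene, 1 of 16 regions had a peak in all 4 WT libraries (34.3 to 47.3 scaled tags) and in no KO library, and in Rxrb both regions were found in both genotypes.

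Most promoters of the 44 genes were open in both genotypes. Of the 44 genes, 38 had a promoter peak in all 8 libraries, Traf1 in 3 KO and 4 WT libraries, Cxcl3 in 2 KO and 4 WT libraries, and Csf3, Il10, Il12a and Il1b in none. The strongest promoters ranked near the top of each library's whole peak list. The median of the 38 members with a peak in all 8 libraries stood at percentile 84.7 of it. Traf1 (percentile 12.2) and Cxcl3 (34.8) were left out of this median. The list holds distal peaks as well, and the percentile of promoters of all genes is not given here. The levels spanned from about 15 to over 500 scaled tags, as the plot of promoter levels shows.

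**Figure D1:**
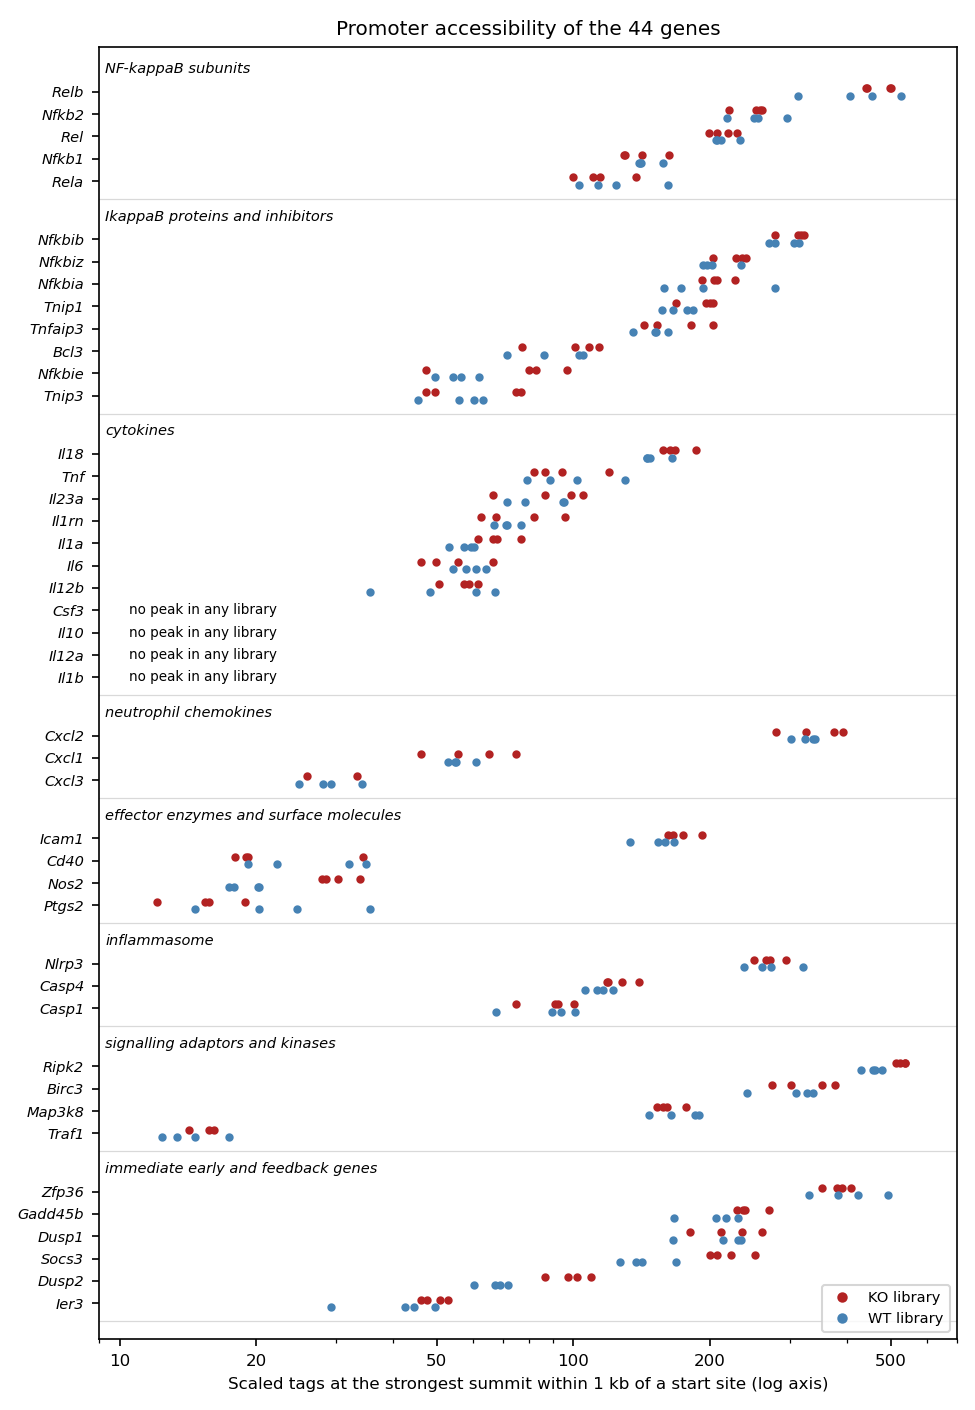
Promoter accessibility of the 44 genes by role. The horizontal log axis gives scaled tags at the strongest summit within 1 kb of an annotated start site, and each point is 1 library (KO red, WT blue). Ripk2, Relb, Zfp36 and Cxcl2 lie at the right, Traf1, Ptgs2, Cd40 and Cxcl3 at the left, and 4 cytokine genes have no peak. Among the genes drawn, the KO and WT points separate completely at the Ripk2, Socs3, Dusp2, Nos2 and Il1a promoters. How often all promoters separate in this way is not given here.

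The strongest promoter of each role group gave the following levels. For Relb, the subunit of the noncanonical pathway, scaled tags were 443, 442, 502 and 498 in KO and 456, 313, 406 and 528 in WT. Nfkbib, which encodes IκBβ, had 318, 312, 322 and 279 in KO and 307, 279, 270 and 315 in WT. The genotypes overlapped at both promoters.

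Among the cytokines, Il18, whose product needs cleavage by caspase-1, had the strongest promoter, with 163, 168, 186 and 158 scaled tags in KO and 145, 145, 147 and 165 in WT. Cxcl2, a neutrophil chemokine, had 392, 375, 326 and 280 in KO and 324, 340, 302 and 337 in WT. Icam1, an adhesion molecule, had 192, 162, 175 and 166 in KO and 134, 160, 154 and 167 in WT. The ranges of KO and WT overlapped for all 3 genes.

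Nlrp3, the sensor of the inflammasome, had 271, 251, 266 and 294 scaled tags in KO and 273, 237, 320 and 260 in WT. Zfp36, which encodes the mRNA-destabilizing protein tristetraprolin, had 409, 353, 381 and 391 in KO and 425, 330, 384 and 494 in WT. Ripk2, the kinase below NOD receptors, is given with the called regions. The promoters of Nlrp3 and Zfp36 overlapped between genotypes.

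Strong promoters were often rich in CpG. Of the 22 members with a promoter at or above percentile 75, 15 had an observed to expected CpG ratio of at least 0.6 in the 300 bases around a start site, against 5 of the 18 members with a weaker peak and 1 of the 4 without one. The median ratios were 0.774, 0.390 and 0.253. These cuts were chosen after the promoter values were seen, and the counts are a description.

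The number of member regions with a peak did not separate the genotypes. KO libraries had peaks in 214, 218, 205 and 207 of the 243 regions and WT libraries in 215, 225, 217 and 210, which gave 211 ± 6.06 (SD, n = 4) in KO and 216.8 ± 6.24 in WT. In promoter regions the means were 67.5 ± 0.577 and 69.0 ± 2.16 of 74, and in distal regions 143.5 ± 6.25 and 147.8 ± 6.40 of 169. Over all regions the libraries held peaks in 82.3% ± 2.29 in KO and 86.6% ± 5.09 in WT, so that list length differed as well.

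No region of the 44 genes was open in all 4 libraries of one genotype and closed in the other. Genome-wide, 0.82% of the regions had a peak in all WT and no KO libraries and 0.285% in all KO and no WT libraries. When 1 library of the other genotype was allowed, a single region qualified, 10.8 kb from the start site of Il23a (chr10:128287099-128287392, downstream of the gene), against 2.03% of all regions in the WT direction and 0.725% in the KO direction. Il23a encodes the p19 subunit of interleukin-23. Its region had 13.5, 17.1, 15.6 and 18.0 scaled tags in WT and 19.0 in KO 3, and the other three KO libraries had no peak. These heights were close to the smallest that could be called, and when KO 3 was left out it was the 1 WT-only member region.

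All 8 libraries had a peak in 177 of the 243 regions, which were compared by height, whereas 66 were not tested. The comparison used limma on log2(tags + 0.5) over all 47499 such regions, with Benjamini-Hochberg adjustment over all of them and a call at an adjusted p under 0.05. Called regions numbered 11 higher and 7 lower in KO, which is 6.21% and 3.95% of the 177 and stands beside 5.81% and 7.03% of all regions. The median difference, KO minus WT, was 0.08 on the log2 scale for the members and 0.04 for all regions, and the KO mean was above the WT mean in 114 regions and below it in 63 (64.4% above, beside 57.6% of all regions). With libraries scaled to their genome average rather than to their median region, 3 were higher and 4 lower (and 575 and 1988 of all regions, in place of 2759 and 3337). Without the library WT 4, 24 were higher and 8 lower (3269 and 3182 of all regions). Without KO 1_2 or WT 3, 7 were higher (2038 and 1937 of all regions).

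Promoter and distal regions were counted apart. Of 60 promoter regions tested, 5 were higher and none lower in KO (8.33% higher), beside 6.86% higher and 2.76% lower of all promoter regions. The 117 distal regions tested held 6 higher and 7 lower (5.13% and 5.98%), beside 5.39% and 8.71% of all distal regions. Median log2 differences were 0.12 in member promoters and 0.09 in all promoters, and 0.04 in member distal regions and 0.01 in all distal regions. The shares called among the members were close to those of the genome in both classes of region, with fewer calls in the lower direction, a difference that was not tested.

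**Figure D2:**
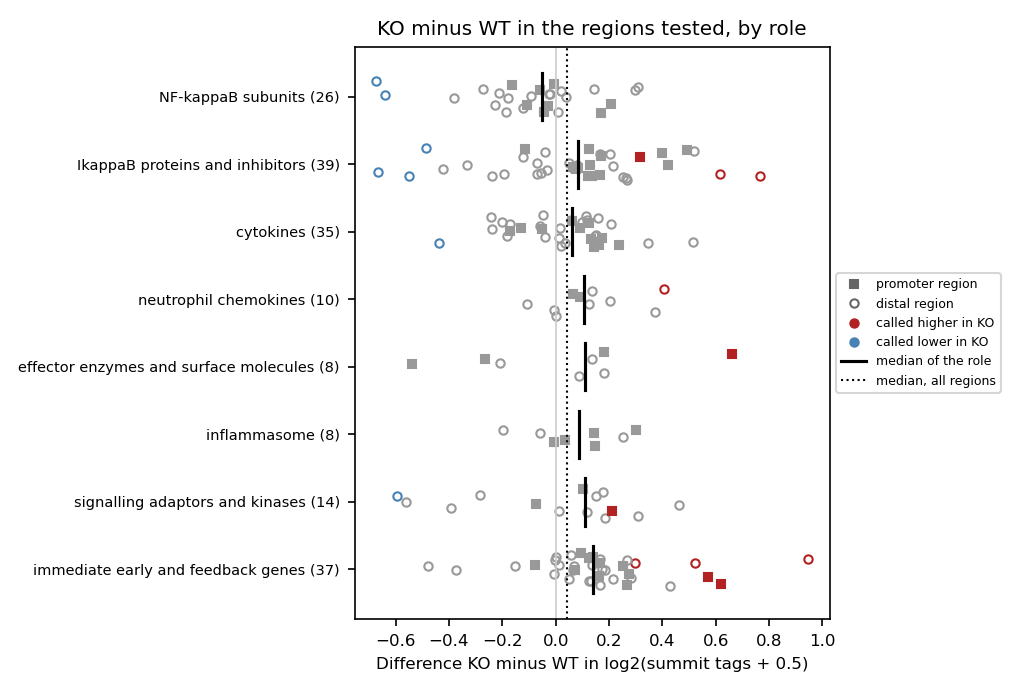
Difference KO minus WT in log2(summit tags + 0.5) for the 177 regions tested, by role of the gene. Squares are promoter regions, open circles distal regions, red and blue mark regions called higher and lower in KO by limma, black bars are medians of each role, the dotted line is the median of all regions, and points are spread vertically for display. Immediate early and feedback genes hold 5 of the 11 red points (13.5% of their regions, beside 5.81% of all regions). The 2 calls of NF-κB subunits are blue (7.69% of their regions, beside 7.03% of all regions).

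Calls were counted by role, beside 5.81% higher and 7.03% lower of all regions. NF-κB subunits had 0 higher and 2 lower of 26 regions (7.69% lower) with a median of -0.05. IκB proteins and inhibitors had 3 higher and 3 lower of 39 (7.69% each) with a median of 0.08. Cytokines had 0 higher and 1 lower of 35 (2.86% lower) with a median of 0.06.

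Neutrophil chemokines had 1 higher of 10 regions (10%) and effector enzymes and surface molecules 1 higher of 8 (12.5%). The inflammasome genes had none of 8, and signalling adaptors and kinases 1 higher and 1 lower of 14 (7.14% each). Immediate early and feedback genes had 5 higher and 0 lower of 37 (13.5% higher, beside 5.81% of all regions) with a median of 0.14. In this group the KO mean was above the WT mean in 31 of the 37 regions (83.8%, beside 57.6% of all regions and 72.4% of all promoter regions). Dusp1 alone held 14 of the 37 (12 above and 2 below), and Socs3 held 3 of the 5 calls. Regions of 1 gene are not independent, and a difference of this group from other regions was not tested. The 18 calls fell in 13 of the 44 genes, and 31 genes held none, among them Tnf, Il6, Il12b, Rela, Relb, Rel, Nfkbia, Tnfaip3, Cxcl1, Cxcl2, Ptgs2, Nlrp3 and Zfp36.

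Socs3, the suppressor of cytokine signalling that dampens STAT3 pathways, held the largest rise in KO among the 177 regions. At its promoter (chr11:117968868-117969678) scaled tags were 222, 200.03, 251 and 208 in KO and 137, 127, 142 and 168 in WT. Downstream of the gene, 5.62 kb from its start site, they were 178, 149, 158 and 158 in KO and 85.1, 78.3, 85.1 and 83.4 in WT. All KO libraries were above all WT libraries in both regions, and the promoter sequence is printed above.

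The downstream region rose 1.93-fold, a log2 difference of 0.95 ± 0.10 (SE; limma, adjusted p = 2.3e-09). The promoter rose 1.54-fold, by 0.62 ± 0.10 (limma, adjusted p = 5.2e-06). A weak region 10.3 kb upstream, nearer to Pgs1, was higher as well (0.52 ± 0.18, adjusted p = 0.045), with 36.8 to 45.1 scaled tags in KO and 22.4 to 38.3 in WT, which overlapped. Its call was lost without any of KO 1_3, KO 2, KO 3, WT 1_2, WT 1_3 and WT 3 (0.40 to 0.53). Of the 6 Socs3 regions tested 5 had a higher KO mean, the exception lying 7.09 kb upstream (-0.15 ± 0.13). The region 6.77 kb downstream was not tested, with peaks in 4 KO libraries (54.4 ± 7.13) and 2 WT libraries (25.9 ± 0.322).

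Taken over its regions, Socs3 was the 1 member that passed the test at gene level, in which each of 15259 protein-coding genes had the mean log2 height of its regions compared by limma. Mean log2 tags were 6.57, 6.58, 6.58 and 6.56 in KO and 6.04, 5.98, 6.03 and 6.47 in WT, a difference of 0.44 ± 0.10 (SE, adjusted p = 0.010). Library WT 4 lay nearest to the KO libraries, and with libraries scaled to their genome average the difference was 0.39 without a call (adjusted p = 0.23). Of the 43 members tested, 1 was higher and 0 lower (2 higher without KO 3, and 3 higher and 1 lower without WT 4), beside 5.27% and 4.48% of all genes, with a median of 0.09 against 0.06 for all genes. Il12a had no region with a peak in all 8 libraries and was not tested.

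Dusp2 and Dusp1 encode phosphatases that switch off MAP kinases. At the Dusp2 promoter (chr2:127335786-127336592) scaled tags were 110, 102, 86.8 and 97.2 in KO and 71.6, 67.1, 60.4 and 66.5 in WT. Without overlap between the genotypes, it rose 1.49-fold (0.57 ± 0.12, limma, adjusted p = 7.5e-04). A region 4.09 kb upstream of Dusp1 had 163 to 200.1 scaled tags in KO and 142 to 151 in WT, and rose by 0.30 ± 0.09 (adjusted p = 0.024), a call lost without KO 1_2 (0.25), KO 3 (0.29) or WT 1_3 (0.28). The other immediate early genes, Zfp36, Ier3 and Gadd45b, had no call in 15 regions tested.

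**Figure D3:**
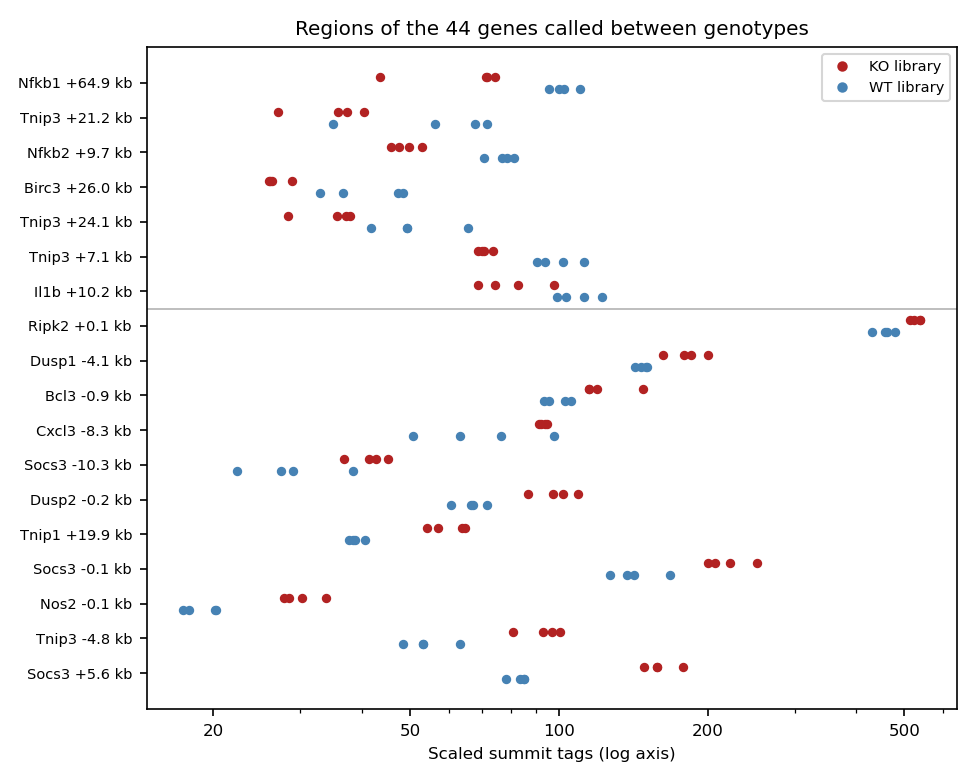
Scaled summit tags per library, on a log axis, in the 18 called regions, each named by its gene and the distance of its summit from the nearest start site of that gene; points are libraries (KO red, WT blue). Regions above the line were lower in KO and those below it higher. The genotypes overlap at Tnip3 +21.2 kb, Cxcl3 -8.3 kb and Socs3 -10.3 kb. The regions drawn were selected by the call, which favours separated points, and how often all regions separate is not given here.

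Tnip3 and Tnip1 encode proteins of the ABIN family, which is named for binding A20 and inhibiting NF-κB. In Tnip3 the called regions went in both directions. A region 4.78 kb upstream of a start site (chr6:65585404-65585852, in an intron of a longer transcript) had 80.6, 92.9, 96.9 and 101 scaled tags in KO and 53.2, 48.4, 53.1 and 63.1 in WT, a rise of 0.77 ± 0.13 (limma, adjusted p = 3.0e-05). The intronic region 7.09 kb downstream of that start site (chr6:65597304-65597692) had 70.7, 68.7, 69.9 and 73.5 in KO and 93.8, 102, 113 and 90.2 in WT, a fall to 0.714-fold (-0.49 ± 0.12, adjusted p = 0.0034). The genotypes did not overlap in either region.

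Further into Tnip3, the regions 21.2 and 24.1 kb from the start site were lower in KO by -0.67 ± 0.18 (adjusted p = 0.0091) and -0.55 ± 0.17 (adjusted p = 0.022). They were small, with KO means of 35.1 and 34.7 scaled tags and WT means of 57.6 and 51.5, and the first overlapped between genotypes through library WT 4 (34.9). The first call was lost without KO 2 (-0.55), WT 1_3 (-0.55) or WT 3 (-0.57), and the second without KO 1_3 (-0.46) or WT 1_3 (-0.43). The Tnip3 promoter, which holds a κB match, did not pass the test (0.12 ± 0.16), nor did its strongest region 3.95 kb downstream (272 ± 9.34 in KO and 262 ± 12.2 in WT). Averaged over 9 regions, Tnip3 differed by -0.12 with no call.

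**Figure D4:**
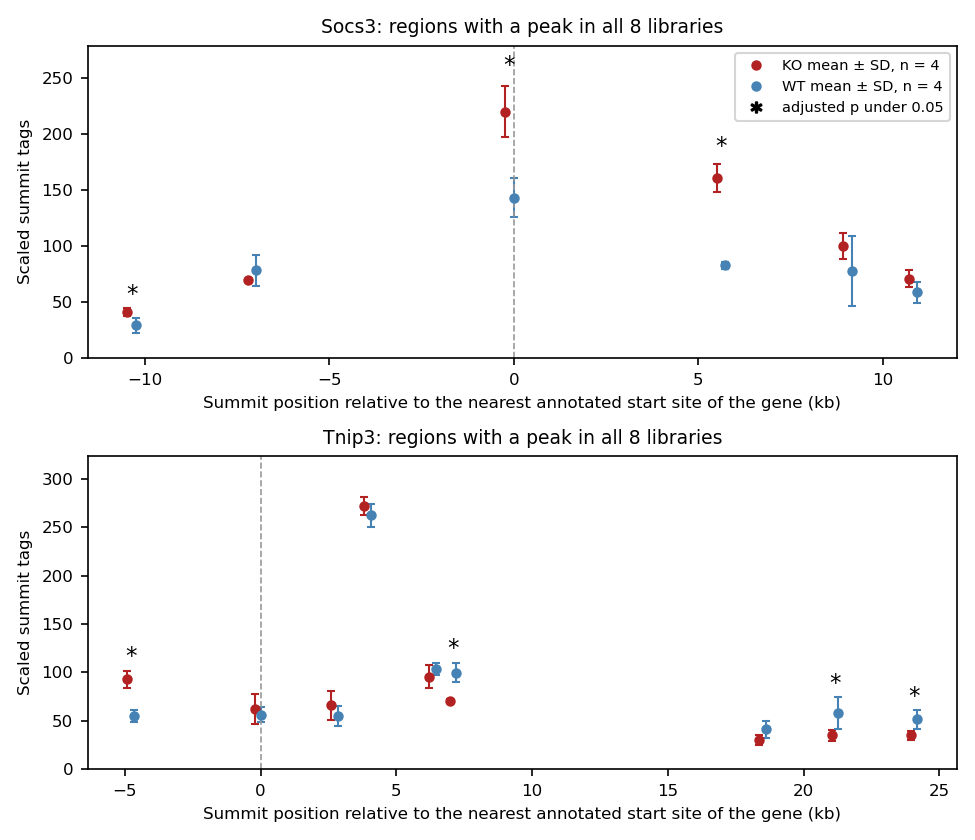
Mean scaled summit tags ± SD (n = 4) of KO (red) and WT (blue) in regions of Socs3 and Tnip3 with a peak in all 8 libraries, against the distance of the summit from the nearest start site of the gene in kb; KO and WT are drawn slightly apart and stars mark calls by limma. In Socs3 all 3 starred regions are higher in KO, and in Tnip3 the starred region at -4.8 kb is higher and the 3 at +7.1, +21.2 and +24.1 kb are lower.

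In Tnip1, an intronic region 19.9 kb from the start site that holds an AP-1 match had 63.7, 64.7, 54.1 and 56.9 scaled tags in KO and 37.7, 38.8, 38.4 and 40.6 in WT. It rose 1.53-fold without overlap (0.61 ± 0.15, limma, adjusted p = 0.0036), and it was 1 of 10 Tnip1 regions tested. Bcl3 encodes a nuclear IκB protein that partners p50 and p52. A region 0.86 kb upstream of Bcl3 had 119, 115, 115 and 148 in KO and 95.8, 103, 93.4 and 106 in WT, a rise of 0.32 ± 0.11 (adjusted p = 0.043) that was lost without KO 1_2 (0.33), KO 3 (0.23), WT 1_2 (0.30), WT 1_3 (0.33) or WT 3 (0.29). The other genes of this group, Nfkbia, Nfkbib, Nfkbie, Nfkbiz and Tnfaip3, had no call, and the Nfkbie promoter had a difference of 0.42 ± 0.15 (adjusted p = 0.063).

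Both calls among the NF-κB subunits were distal and lower in KO, which is 7.69% of their regions tested, beside 7.03% of all regions. Nfkb1 encodes p105, the precursor of p50. Its region in an intron 64.9 kb from the start site (chr3:135602543-135603138) had 71.7, 43.4, 74.4 and 71.2 scaled tags in KO and 110, 95.4, 103 and 100.3 in WT. KO lay below WT in every library, at 0.627-fold (-0.67 ± 0.14, limma, adjusted p = 3.7e-04), and without KO 1_3, the lowest library, the difference was -0.49 and still called.

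Nfkb2 encodes p100, the precursor of p52. The region 9.73 kb from its start site (chr19:46314894-46315632), downstream of the gene and 2.66 kb from the start site of Psd, had 45.8, 47.5, 53.0 and 49.8 in KO and 70.6, 76.8, 78.7 and 81.2 in WT. It fell to 0.641-fold without overlap (-0.64 ± 0.14, adjusted p = 6.8e-04). The promoters of Nfkb1 (141 ± 15.5 in KO and 144.5 ± 8.89 in WT) and Nfkb2 (248 ± 18.6 and 254 ± 31.9), both with κB matches, did not pass the test. Rel, Rela and Relb had no call in 10 regions tested.

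Nos2 encodes inducible nitric oxide synthase. Its promoter (chr11:78920503-78920855) was among the weakest, with 27.9, 30.3, 33.8 and 28.5 scaled tags in KO and 17.4, 17.9, 20.1 and 20.3 in WT. The rise was 1.58-fold without overlap (0.66 ± 0.19, limma, adjusted p = 0.014), and it was lost without KO 2 (0.60). Ptgs2, which encodes the inducible cyclooxygenase, had 18.9, 12.1, 15.8 and 15.4 at its promoter in KO and 20.3, 24.6, 35.7 and 14.7 in WT, which overlapped and gave no call (-0.54 ± 0.22, adjusted p = 0.11). It is named here after its value was seen, as the promoter with the lowest difference.

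Il1b, the gene of interleukin-1β, had no promoter peak in any library, and its strongest region lay 2.34 kb upstream with 208 ± 19.0 in KO and 194 ± 19.6 in WT. A region 10.2 kb from the start site, downstream of the gene, had 82.6, 98.0, 74.4 and 68.8 in KO and 104, 122, 113 and 99.2 in WT, a fall to 0.738-fold (-0.44 ± 0.12, limma, adjusted p = 0.0090). The genotypes did not overlap, and the call was lost without KO 3 (-0.37). This region holds an AP-1 match. No other cytokine region was called among 35 tested.

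Ripk2 had the highest promoter of the 44 genes, at percentile 99.6 on average. Scaled tags were 514, 538, 523 and 537 in KO and 479, 430, 458 and 461 in WT, a rise of 1.16-fold without overlap (0.21 ± 0.07, limma, adjusted p = 0.041). Without WT 4 the call was kept, and it was lost without each other library (0.18 to 0.23). Birc3 encodes cIAP2, a ubiquitin ligase of the TNF receptor complex. A region 26.0 kb from its start site and 9.94 kb from that of Birc2 had 25.9 to 28.9 in KO and 32.9 to 48.4 in WT, a difference of -0.60 ± 0.18 (adjusted p = 0.019) that was lost without WT 1_3 (-0.51) or WT 4 (-0.52).

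The 1 call among the neutrophil chemokines lay 8.27 kb upstream of Cxcl3 and 5.32 kb from the start site of Pf4, with 91.3 to 94.6 scaled tags in KO and 50.7 to 97.6 in WT. The genotypes overlapped, and the difference of 0.41 ± 0.14 (limma, adjusted p = 0.041) was lost without any KO library (0.40 to 0.42), WT 3 (0.36) or WT 4 (0.26). Of the 18 called regions, 8 were kept in each of the 8 fits that left out a library, among them the regions of Socs3 (promoter and +5.6 kb), Dusp2, Tnip1, Nfkb1, Nfkb2 and Tnip3 (-4.8 and +7.1 kb). Scaled to the genome average, 7 of the 18 kept their call, at Socs3 (promoter and +5.6 kb), Nfkb1, Nfkb2 and Tnip3 (-4.8, +7.1 and +21.2 kb), and the other 11 kept their direction without a call. With libraries 1_2 and 1_3 of each genotype taken as 1 sample, 14 of the 18 kept their call, and those at Bcl3, Ripk2, Socs3 -10.3 kb and Tnip3 +24.1 kb were lost (limma, adjusted p = 0.055 to 0.098). In 6 of the 18 the nearest start site belonged to another gene.

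Regions with and without a κB match were set side by side. Of 35 regions with a match, 26 were tested with a median log2 difference of 0.13, 1 call higher (Nos2) and 0 lower. The 208 regions without a match had 151 tested, a median of 0.06, 10 calls higher and 7 lower. The difference between these sets was not tested.

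The other genes of the pathway, 38 kinases, adaptors, receptors and ubiquitin enzymes, held 231 regions, of which 184 were tested. Regions called numbered 8 higher and 5 lower in KO, which is 4.35% and 2.72% of those tested, below the 5.81% and 7.03% of all regions. All 38 genes had a promoter peak in all 8 libraries. The largest rise was in an intron of Il1r1, the interleukin-1 receptor, 39.7 kb from its start site (chr1:40306152-40306514), with 42.8, 34.4, 47.3 and 51.0 scaled tags in KO and 23.2, 19.4, 20.1 and 12.4 in WT (1.22 ± 0.20, limma, adjusted p = 1.1e-05). The genotypes did not overlap there. Of the 13 calls, this one and those below at Tnip2 and the lower Otulin region were kept under genome-average scaling. The 2 smallest of the 8 rises are named after their values were seen. They lay at a second Il1r1 region (0.28 ± 0.09, limma, adjusted p = 0.023) and upstream of Nfkbid (0.27 ± 0.09, limma, adjusted p = 0.045). The latter was 0.556 kb from the start site of Hcst, a neighbouring gene. Without KO 3, WT 1_2, WT 3 or WT 4 the counts of higher regions were 4, 5, 4 and 15 (1823, 2348, 1937 and 3269 of all regions). Without KO 1_3, KO 3 or WT 3 those of lower regions were 3, 2 and 2 (2899, 2846 and 2624 of all regions).

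The next largest rises (limma) were in an intron of Otulin, a deubiquitinase of linear chains (0.55 ± 0.16, adjusted p = 0.016), and 0.78 kb from an Ikbkg start site (0.43 ± 0.12, adjusted p = 0.0089). The other Ikbkg promoter regions did not pass the test. The strongest of them had 208 ± 13.5 scaled tags in KO and 197 ± 28.3 in WT (0.09 ± 0.09). Further rises were at the Tab1 promoter (0.38 ± 0.13, adjusted p = 0.046) and downstream of Irak4 at the Twf1 promoter (0.33 ± 0.09, adjusted p = 0.011). Ikbkg and Tab3, whose promoter was higher by 0.28 ± 0.08 (adjusted p = 0.015), are X-linked. Of 1121 X-linked regions tested, 120 were higher and 39 lower in KO with a median of 0.11, against 2639 higher and 3298 lower of 46378 autosomal regions with a median of 0.04.

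The falls were in an intron of Otulin (-0.74 ± 0.22, adjusted p = 0.015), upstream of Tnip2 (-0.56 ± 0.18, adjusted p = 0.027), in introns of Map3k14 (-0.48 ± 0.15, adjusted p = 0.024) and Irak2 (-0.30 ± 0.09, adjusted p = 0.022), and upstream of Tbk1 (-0.43 ± 0.12, adjusted p = 0.011), all by limma. The Irak2 region lay 0.989 kb from the start site of another gene, Gm43963. The calls at the Il1r1 +28.4 kb, Nfkbid, Tab1, Otulin, Map3k14, Tnip2 and Irak2 regions were each lost in 2 or more of the 8 fits that left out a library, and that at Tab3 without KO 3 (0.26). At gene level Tab1 (0.34 ± 0.08), Il1r1 (0.28 ± 0.08), Traf6 (0.26 ± 0.08) and Tradd (0.22 ± 0.06) were higher and 0 lower of 38 genes, beside 5.27% and 4.48% of all genes. Each of these 4 gene calls was lost in at least 6 of 8 fits that left out a library, and each was lost when libraries 1_2 and 1_3 of a genotype were taken as 1 sample (limma, adjusted p = 0.052 to 0.10), as were those of the Tab1 and Nfkbid regions (limma, adjusted p = 0.13 and 0.14).

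In all, 3 regions of these pathway genes had a peak in all 4 WT libraries and none in KO, which is 1.30% of their 231 regions, beside 0.82% of all regions and 0 of the 243 regions of the 44 genes. The difference between these shares was not tested. In an intron of Irak2, the kinase that sustains IL-1 and Toll-like receptor signals (chr6:113656877-113657237), WT had 113, 112, 134 and 222 scaled tags. In an intron of Map3k14, the kinase of the noncanonical pathway (chr11:103265271-103265503), WT had 62.9, 61.9, 78.7 and 76.7. In an intron of Tnfrsf1b, the second TNF receptor (chr4:145230712-145230972), WT had 51.3, 48.4, 48.5 and 48.5.

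These WT heights were well above the smallest callable summit, and no KO library had a peak at any of the 3. None of them held a match to the motifs searched. A region downstream of Irak1, X-linked as well, went the other way with a peak in 4 KO libraries (14.7 to 24.9) and in 1 WT library (11.9).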

How the data were processed

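Per the labels and the study's methods, alveolar macrophages of 4 KO and 4 WT libraries were tagmented with Tn5 and sequenced in pairs. The authors trimmed adapters with cutadapt, aligned to mm10 with Bowtie2, removed duplicates and poorly mapped reads, and called peaks per library with MACS3 on cut sites extended to 200 bases. The 8 deposited peak lists give, per the authors' caller, a fold ratio, a −log10 p-value, a −log10 q-value and a score, with no read counts, so that the authors' edgeR counts were not used here. The largest q-value listed in a library was 0.0465.

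Tags at a summit were worked back from the deposited fold and −log10 p. Whole numbers matched both columns within a relative error of 1e-05 for 100% of peaks. Peaks sharing a base were merged, regions in at least 2 libraries were kept, and genes and start sites came from GENCODE M21. Each library was centred on its median of log2(tags + 0.5), pseudocount 0.5, and limma 3.58.1 (R 4.3.3) with a trended prior was fitted over regions with a peak in all 8 libraries, without covariates. The script was tested on simulated data. Sequences were read from GRCm38.p6 with pysam 0.24.0. The sequence of 1 called region is not reported here. Intervals of error are SD or SE over libraries.

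The 44 members, the role groups, the pathway and marker lists and the motifs were chosen with earlier results of these data known. Regions are named by rule: called regions, regions in 4 libraries of one genotype and at most 1 of the other, the strongest promoter of each role, members without a promoter peak, members called at gene level, and for other pathway genes the 6 largest calls per direction and genotype-specific regions. Alternatives were other scalings, a larger pseudocount of 5, a constant prior, other windows and merges, stricter peaks, and leaving out each library.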

Additional observations from a re-analysis of the deposited data

Results flagged for a closer look

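In 149 groups of 4 libraries, the gap of the highest or lowest library to its nearest neighbour was divided by the range of the group, and 9 groups exceeded Dixon's 95% critical value for 4 values, which chance passes in about 1 of 20 groups. Among called regions, library KO 1_3 stood low at Nfkb1 +64.9 kb (43.4 scaled tags against 71.2 to 74.4, ratio 0.895), KO 3 high at Bcl3 -0.9 kb (148 against 115 to 119, ratio 0.865) and KO 1_2 high at Birc3 +26.0 kb (28.9 against 25.9 to 26.3, ratio 0.884). Among promoters, WT 4 stood high at Nfkb1 (158 against 139 to 141, ratio 0.915) and Il18 (165 against 145 to 147, ratio 0.883), and KO 1_3 at Cd40 (34.4 against 17.9 to 19.2, ratio 0.924). In other pathway genes, WT 1_2 stood high at Ikbkg +0.8 kb (78.4 against 71.4 to 72.3, ratio 0.871) and at Tnfrsf1b +16.0 kb (51.3 against 48.4 to 48.5, ratio 0.975), and KO 3 low at Tnip2 -6.7 kb (24.9 against 48.5 to 52.5, ratio 0.853).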

How the results depend on the processing

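With libraries scaled to their genome average, member regions called were 3 higher and 4 lower in KO in place of 11 and 7, pathway regions 1 and 2 in place of 8 and 5, and member genes 0 in place of 1. Over all regions this scaling gave 575 higher and 1988 lower (22.4% higher, against 45.3%) and over all genes 89 and 340 in place of 804 and 683, while the median of all regions moved from 0.04 to -0.01 and that of member distal regions from 0.04 to -0.01. Leaving out 1 library gave 7 to 24 higher and 5 to 8 lower member regions, 1 to 3 higher and 0 to 1 lower member genes, 4 to 15 higher and 2 to 5 lower pathway regions, and 0 to 1 WT-only member regions. The highest of the counts of higher regions came without WT 4, which also gave 3269 and 3182 calls over all regions. A window of 0 kb gave 7 and 4 member regions and 2 higher member genes, and 20 kb gave 17 higher, as more regions were counted. A constant prior gave 2 higher member genes and 2 higher and 2 lower pathway regions, quantile normalisation 1 lower member gene, and lists cut to equal length 1 KO-only member region. For the effects other than that of the windows, the cause was not tested.

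Replicate names 1_2, 1_3 and 3 occur in both genotypes. With the name as a replicate block over these 6 libraries, 33 member regions, 17 pathway regions and 3 member genes were higher. Over all features this fit gave 3608 of 47499 regions and 746 of 15259 genes higher. The same 6 libraries without the block gave 23, 9 and 2 higher, and over all features 2509 regions and 625 genes. That fit was added after seeing the data, and in it 2 pathway regions were lower. How far the members differ from all features in these fits was not tested. Libraries with the same name correlated by 0.0555, 0.116 and 0.0368 in their deviations from the group means, and 6 of 6 correlated best with their own name. The names were not taken as pairs in the results above. Small correlations do not settle whether libraries of 1 name were handled together, and what a shared name stands for is not known here.

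Under the alternatives, 586 values of single called regions and genes were computed, of which 0 changed direction and 182 missed the threshold. Of the 18 member regions called, 6 kept their call under each alternative, 7 under genome-average scaling and 15 under quantile normalisation. The remaining counts of genotype-specific regions, the median differences and the occupied regions stayed within 1.5 times or 1 SD of their value in the settings tried. Peaks under 6 to 9 tags were not callable.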
